A study of Mus musculus with 4 samples.

Results

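Core pluripotency genes were followed in single mouse ES cells as 7 genes chosen by name, namely Pou5f1 (Oct4), Sox2, Sall4, Utf1, Zfp42 (Rex1), Lin28a and Trim28, out of 46078 genes in the count tables. All 7 were found by their Ensembl identifiers, and the question was how steady their levels were 6 h after a change of medium. The cells were wild-type E14 mouse ES cells that had grown in 2i, a medium in which inhibitors of MEK and GSK3 hold the cells naive, given together with the cytokine LIF. They were sorted by scattered light through a gate for small cells, which holds mostly cells just out of mitosis or in G1, or were taken ungated, and then spent 6 h on laminin in 2i or in N2B27, the same base medium without the inhibitors and LIF, in which naive pluripotency is lost. The 4 groups, small and ungated in 2i and small and ungated in N2B27, are each 1 sample of 24 cells read by Smart-seq2. With 1 sample per group no test between groups is given, and SDs describe the spread over cells. The 95% intervals on shares of cells take the cells of 1 sample as independent draws. They do not cover differences between samples. All 2i cells shared 1 plate and lane and all N2B27 cells another, so the effect of medium and that of plate and lane cannot be told apart, and small and ungated cells lie on different index rows of their plate.

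Pluripotency is held by a network of transcription factors that bind enhancers together and keep each other active. Pou5f1 and Sox2 are the pair at its centre and are needed both in naive cells and in cells on their way out, whereas much of the rest of the naive network is shut down during exit. Zfp42 encodes a zinc-finger protein whose locus carries the reporter commonly used to follow exit from the naive state. Sall4 is a zinc-finger factor that works with Pou5f1, Utf1 is a chromatin-bound protein made in undifferentiated cells, Lin28a is an RNA-binding protein that blocks maturation of let-7 miRNAs, and Trim28 (Kap1) is a corepressor that silences retroelements and helps keep the ES cell state.

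Quality filters kept 12 of 24 cells in 2i small, 22 in 2i ungated, 20 in N2B27 small and 21 in N2B27 ungated, 75 in all, with 1364155 to 4844170 counts on genes per cell. A pair of cells in the 2i small group bears on what follows. One of them had 40.9% of its counts on ERCC spike-ins, RNAs added in equal amount to every well, with 4612 genes detected and a size factor of 0.133, so its counts weigh heavily in means. The other had 15712 genes detected and 0.0673% of its counts on spike-ins. Without the latter cell no ratio of a member moved by more than 0.11 on the log2 scale or changed its side of 2-fold. Members past 2-fold in a comparison with 2i small, the gene lists and the spread over cells are also given without the first cell or without the 4 cells over 10% spike-ins. Markers of primitive endoderm, 2-cell-like cells, fibroblasts, mesendoderm and trophoblast had a summed median level of 0 in every group. The highest single cells reached a sum of 533 normalized counts for primitive endoderm (N2B27 ungated), 1024 for mesendoderm (2i small) and 1035 for trophoblast (N2B27 small). At least 10 counts of 2 or more markers of a list were held by 1 cell of N2B27 ungated for primitive endoderm and, for mesendoderm and for trophoblast, by 1 cell in each 2i group. All 6 fibroblast markers were at 0 in both N2B27 groups. Of the cells in G1, S and G2/M by their expression, there were 6, 5 and 1 in 2i small, 0, 7 and 15 in 2i ungated, 6, 11 and 3 in N2B27 small, and 2, 4 and 15 in N2B27 ungated. The assignment draws random numbers, and under 5 other seeds 3 of the 75 cells, 1 of 2i ungated and 2 of N2B27 small, were assigned differently at least once, so counts and means by phase can shift by 1 or 2 cells.

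The promoters of the 3 genes that the levels below turn on are shown for the sequence that lies next to their start, as 250 bases before the RefSeq start of GRCm38.p6, 5′ to 3′ on the strand of the gene. Capitals mark matches, on either strand, to any of 5 motifs: the octamer ATGCAAAT bound by POU factors, CATTGTT bound by SOX factors, TCAAGGTCA bound by ESRRB, GGGCGG (the GC box) and TTCCNGGAA bound by STAT3.
Zfp42, chr8:43307010-43307259, minus strand: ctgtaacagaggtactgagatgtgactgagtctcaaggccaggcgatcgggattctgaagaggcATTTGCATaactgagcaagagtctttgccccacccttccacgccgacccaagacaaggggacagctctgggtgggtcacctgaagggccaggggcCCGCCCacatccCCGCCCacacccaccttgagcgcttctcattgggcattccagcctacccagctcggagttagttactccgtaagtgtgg
Utf1, chr7:139943606-139943855, plus strand: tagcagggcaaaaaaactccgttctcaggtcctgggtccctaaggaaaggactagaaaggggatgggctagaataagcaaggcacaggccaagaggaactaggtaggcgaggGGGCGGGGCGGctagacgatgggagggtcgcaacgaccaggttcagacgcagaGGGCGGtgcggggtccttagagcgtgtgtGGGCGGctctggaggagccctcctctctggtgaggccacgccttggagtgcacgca
Pou5f1, chr17:35505782-35506031, plus strand: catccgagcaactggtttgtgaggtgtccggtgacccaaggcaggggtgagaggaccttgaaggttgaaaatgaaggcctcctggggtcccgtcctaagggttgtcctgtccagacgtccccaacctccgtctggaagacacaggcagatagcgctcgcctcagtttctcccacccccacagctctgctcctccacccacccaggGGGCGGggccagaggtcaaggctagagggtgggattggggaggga

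The Zfp42 promoter held an octamer from base -186 to base -179 before the start, on the strand opposite to the gene, a match found in 1.60% of all 32851 RefSeq promoters of that length. It also held 2 GC boxes. Utf1 held 4 GC boxes, of which the first and second overlap by 1 base, and the first Pou5f1 promoter held 1, from -45 to -40. The GC box is common and was found in 32.7% of promoters. Of the remaining members, Sox2 and Trim28 held 2 GC boxes each, a second Pou5f1 promoter held a CATTGTT match, found in 3.29% of promoters, and Lin28a held none of the 5 motifs. No member held a TCAAGGTCA match (0.387% of promoters) or a TTCCNGGAA match (0.913%). Sall4 has no entry in the promoter table. A match is a description of the letters and not a measured binding site.

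Per kilobase of exon, the levels ran in much the same order in every group. Zfp42 was highest with a mean of 1218 to 2170 normalized counts per kb, where a normalized count is a read count divided by the DESeq2 size factor of the cell. Utf1 followed with 702 to 1815 per kb. Pou5f1 (98.7 to 191 per kb) and Trim28 (104 to 172 per kb) were close together and changed places between groups. Sall4 stood at 56.6 to 71.0 per kb outside 2i small, Sox2 at 23.2 to 53.6 and Lin28a lowest at 2.54 to 15.5 per kb. In 2i small, Sall4 stood between Utf1 and Trim28 with a mean of 357.0 per kb, but its median over cells was 51.5 per kb. By mean level over all kept cells, without division by length, Zfp42 had rank 67, Utf1 rank 214 and Lin28a rank 6681 among all genes.

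**Figure D1:**
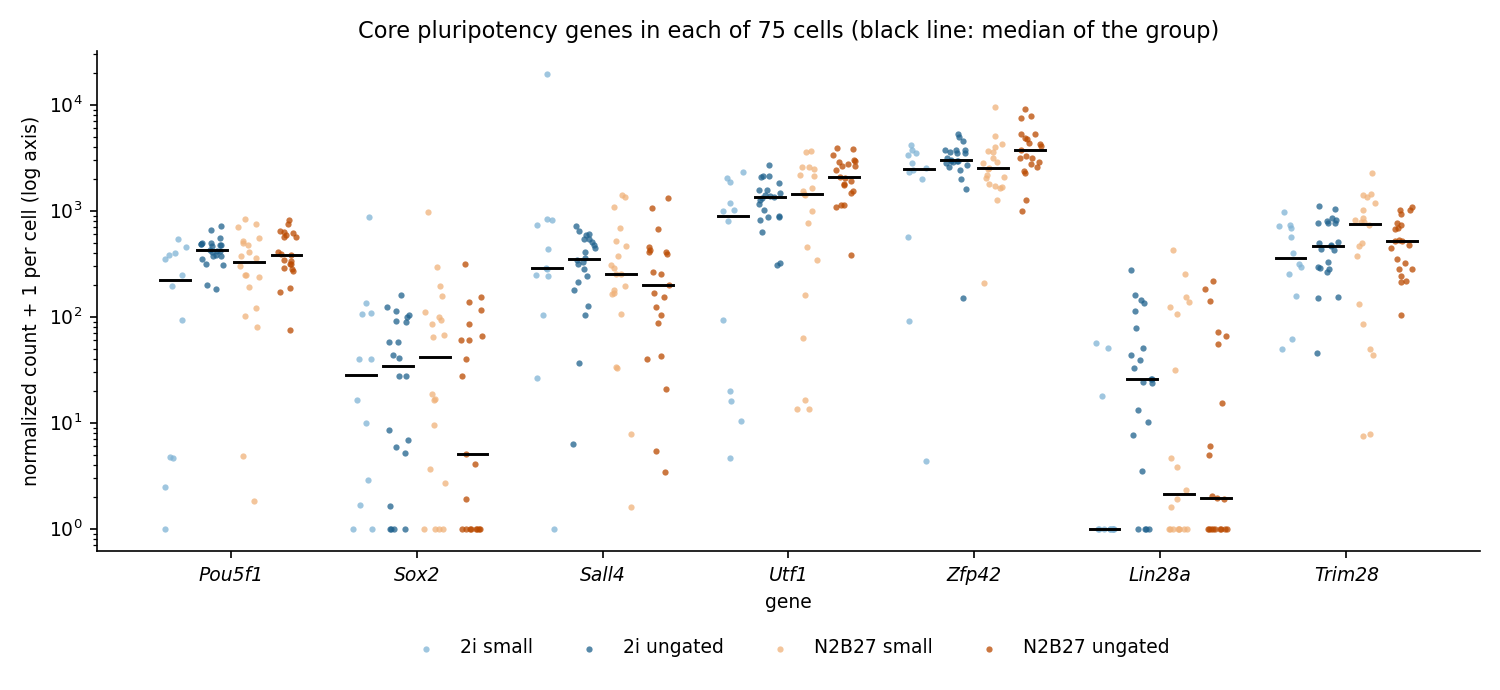
Normalized count plus 1 of the 7 genes in each kept cell, on a log axis, with 1 point per cell, the 4 groups in colour and black lines at the group medians. Pou5f1, Utf1, Zfp42 and Trim28 stand at 44.7 or above in all 43 ungated cells, whereas Sox2 and Lin28a range from 0 to 310 and 274 in those cells, and the lone high point of Sall4 in 2i small is a cell at 19709.

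Pou5f1, the POU factor at the centre of the network, had the ratio nearest to 0 of the 7 between media in ungated cells. Its normalized count ran from 179.8 to 721 over the 22 cells in 2i, with a median of 421, and from 73.3 to 825 over the 21 cells in N2B27, with a median of 383. The ranges overlap over nearly their whole length. The means were 430.1 ± 126 (SD over cells) and 426 ± 201, a log2 ratio of -0.01 for N2B27 over 2i, and 2.04% of tested genes had a ratio nearer to 0. The ratio was between -0.27 and 0.41 under 11 alternatives, the latter with poscounts size factors, which put the median of all genes at 0.40. Every ungated cell of both media held at least 10 counts of Pou5f1.

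Small cells held Pou5f1 less evenly. In 2i small it ran from 0 to 541 with a median of 220.0, and in N2B27 small from 0.821 to 842 with a median of 327. In 2i, 8 of 12 small cells held at least 10 counts (66.7%, exact 95% interval 34.9% to 90.1%), and in N2B27 18 of 20 (90.0%, 68.3% to 98.8%). The mean of 2i small, 222 ± 199.9, was lower than that of 2i ungated at a log2 ratio of -0.95, just inside 2-fold, and all 14 alternatives put it lower, from -2.73 to -0.26. The 4 cells of 2i small under 10 counts had a median spike-in share of 16.9%, against 2.31% in the other 8 cells, and the part of the spike-in share in this difference was not tested. By phase, the mean was 91.7 ± 147 in the 6 G1 cells of 2i small and 343 ± 177 in its 5 S cells. Pou5f1 has processed copies elsewhere in the genome, and 14.1% of its exon bases are shared with the antisense gene Gm19553, whose reads the counting leaves out as ambiguous, so its level may be understated.

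Sox2, the partner of Pou5f1 on composite enhancer sites, was low and patchy. It ran from 0 to 158.8 in 2i ungated (median 33.5) and from 0 to 310.5 in N2B27 ungated (median 4.12). The means were close, 47.6 ± 49.2 and 50.3 ± 77.2, a log2 ratio of 0.08 for N2B27 over 2i. The medians were not, and their log2 difference was -2.72, since 10 of 21 cells in N2B27 held at least 10 counts (47.6%, 25.7% to 70.2%) and 13 of 22 in 2i did (59.1%, 36.4% to 79.3%). Those intervals overlap. In small cells 8 of 12 and 14 of 20 held at least 10 counts.

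Means of Sox2 in small cells rested on few cells. In 2i small the level ran from 0 to 868 with a median of 27.2, and the top cell held 65.8% of the sum over the group. In N2B27 small it ran from 0 to 981 with a median of 40.6, and the top cell held 44.5%. Sox2 was past 2-fold for small over ungated in both media, at a log2 ratio of 1.19 in 2i and 1.12 in N2B27. However, in 2i the ratio was -0.047 without the highest cell of each group and -0.87 among cells in S. Without the 4 cells over 10% spike-ins it was 0.23 in 2i. In N2B27 the ratio was 0.77 without the highest cells. Scaled to spike-ins it was -0.072 in N2B27, where that scale put the median of all genes at -0.82. Reads of Sox2 and of the long transcript Sox2ot around it share no exon bases in the annotation used here.

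Sall4, the zinc-finger partner of Pou5f1, had medians of 351 in 2i ungated (5.24 to 719) and 198.7 in N2B27 ungated (2.40 to 1319). The mean was 363 ± 202 and 313 ± 345, a log2 ratio of -0.21 for N2B27 over 2i, whose sign turned under 1 of 11 alternatives, poscounts size factors (0.24). It was -0.82 with medians and -0.86 with means of log2 values, and past 2-fold at -2.94 among the 7 and 4 cells in S. The cells were spread more widely in N2B27, where the SD over mean was 1.10, than in 2i, where it was 0.558. In small cells Sall4 had a median of 285 in 2i and 252 in N2B27.

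The mean of Sall4 in 2i small, 1976 ± 5592, came mostly from the cell with the highest spike-in share. That cell held 2616 counts, which its size factor turned into 19709 normalized counts and 83.1% of the group's sum, while the highest of the other 11 cells was at 827 and their mean was 364. Sall4 was therefore past 2-fold in each comparison that uses the group, at a log2 ratio of 2.44 for small over ungated in 2i and -2.33 for N2B27 over 2i in small cells. Without that cell the ratios were 0.0065 and 0.11, and without the 4 cells over 10% spike-ins 0.42 and -0.30. For 9.50% of the exon bases of Sall4 the annotation also holds Gm14261, a transcript on the other strand.

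Utf1, which marks undifferentiated cells, had the highest ratio of the 7 for N2B27 over 2i in ungated cells. It ran from 306 to 2712 in 2i (median 1335) and from 378 to 3894 in N2B27 (median 2092). The mean was 1319 ± 604 and 2227 ± 942, 1.69-fold higher in N2B27, a log2 ratio of 0.75. Many cells of both media overlap, and the lowest cells are alike. The ratio stayed above 0 under all 11 alternatives, from 0.43 among cells in S to 1.18 with poscounts size factors, and 73.6% of tested genes had a ratio of smaller size. In small cells the ratio was 0.70 (862 ± 860 in 2i and 1403 ± 1184 in N2B27), and it was -1.16 when scaled to spike-ins, a scale that put the median of all genes at -1.55. Each group lay on a pair of index rows, which are parts of 1 sample on 1 plate and no replicates. The means of Utf1 by row were 2122 and 2342 in N2B27 ungated and 1232 and 1407 in 2i ungated. In small cells they were 1790 and 929 in N2B27 and 986 and 688 in 2i, so rows of 1 sample can lie far apart.

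Small cells spanned a far wider range of Utf1. In N2B27 small it ran from 12.4 to 3628 with a median of 1436, and the lower quartile, 296, lay under the lowest cell of N2B27 ungated. In 2i small it ran from 3.64 to 2321 with a median of 898. In N2B27 small the level went with the spike-in share of the cell, at Spearman's rho of -0.81 over the 20 cells, which share a plate, and 0.75 with the number of genes detected. In N2B27 ungated the same rho was 0.14 with spike-ins. By phase, the mean was 701 in the 6 G1 cells, 1577 in the 11 S cells and 2167 in the 3 G2/M cells of N2B27 small, with SDs of 941, 1278 and 649.6, and 157.8 in the 6 G1 and 1505 in the 5 S cells of 2i small. Of those 6 G1 cells, 3 held under 10 counts. Phase, spike-in share and genes detected move together here, and their parts were not tested.

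**Figure D2:**
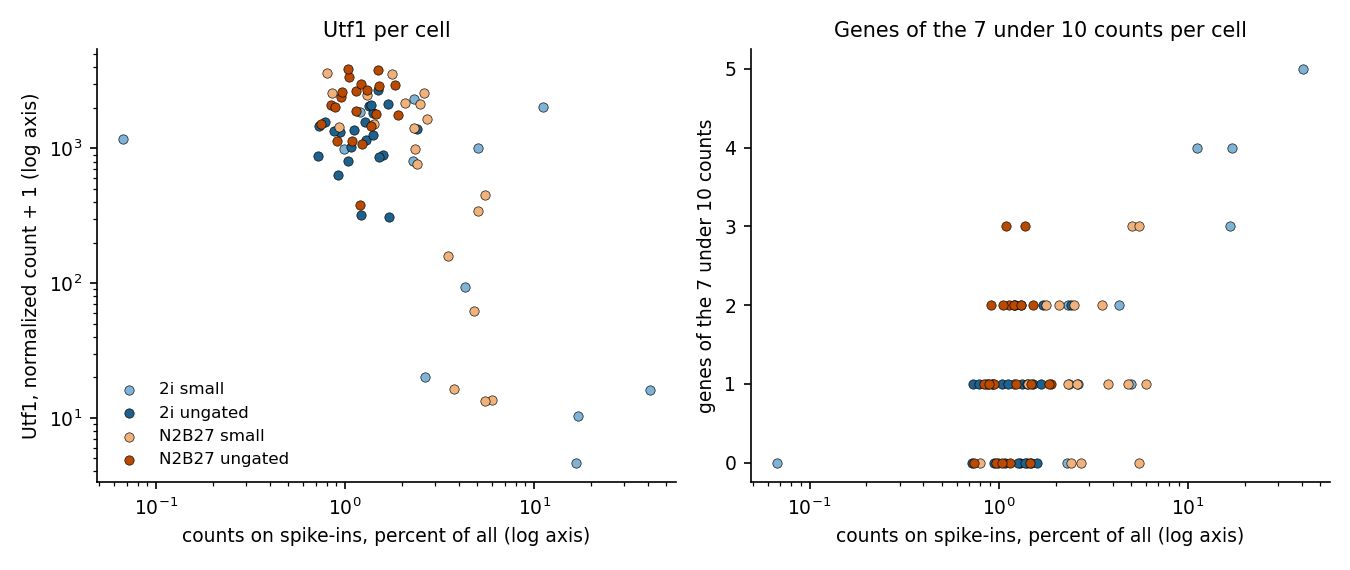
Left, normalized count plus 1 of Utf1 (log axis) against the share of counts on ERCC spike-ins in percent (log axis), and right, the number of the 7 genes under 10 counts against the same share, with 1 point per kept cell and the 4 groups in colour. Ungated cells lie between 0.718% and 2.42% spike-ins, and all 4 cells over 10% are of 2i small and have 3 to 5 of the 7 genes under 10 counts.

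Zfp42, the gene behind the naive-state reporter, was at least as high after 6 h in N2B27 as in 2i, in means over ungated cells. It ran from 148.8 to 5319 in 2i ungated (median 2987) and from 1001 to 9057 in N2B27 ungated (median 3730). The mean was 3127 ± 1102 and 4082 ± 2074, a log2 ratio of 0.38 for N2B27 over 2i, which fell to -0.018 among cells in S and was above 0 under the other 10 alternatives. The difference is smaller than either SD over cells. In small cells the mean was 2291 ± 1409 in 2i and 2930 ± 1924 in N2B27, a log2 ratio of 0.35. The ratio turned with spike-in scaling (-1.41, with the median of all genes at -1.55) and without a filter on cells (-0.34). Without the 4 cells of 2i small over 10% spike-ins the mean of 2i small was 2887, close to that of N2B27 small. Small cells stood below ungated cells at -0.45 in 2i and -0.48 in N2B27. In 2i the ratio turned to 0.63 with spike-in scaling, where the median of all genes was 0.77. It also turned there to 0.23 without a filter on cells and to 0.18 with poscounts size factors. In N2B27 the ratio turned to 0.16 among cells in S. All kept cells of the other 3 groups held at least 10 counts of Zfp42, and 11 of 12 did in 2i small, where the exception held 5 counts in a cell with 2666712 counts on genes and 11.1% spike-ins. Zfp42 was also the member most often seen in cells that the filters left out, with at least 10 counts in 8 of the 12 left-out cells of 2i small, against 1 for Pou5f1 and 0 for Sox2.

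Lin28a, which blocks let-7 maturation, was the lowest of the 7, with 0 counts in 30 of 75 cells. It ran from 0 to 274 in 2i ungated (median 25.0) and from 0 to 217 in N2B27 ungated (median 0.948). At least 10 counts were held by 16 of 22 cells in 2i (72.7%, 49.8% to 89.3%) and by 7 of 21 in N2B27 (33.3%, 14.6% to 57.0%). The means, 54.1 ± 70.0 and 35.8 ± 64.9, gave a log2 ratio of -0.58 for N2B27 over 2i, below 0 under all 11 alternatives, from -0.12 with poscounts size factors to -4.45 among cells in S. The shares of cells lay further apart than the means, and the intervals of the shares overlap. Thinned to 1300000 counts per cell, 14 of 22 and 6 of 21 cells held at least 10 counts.

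In small cells Lin28a was held by 3 of 12 cells in 2i (25.0%, 5.49% to 57.2%) and by 7 of 20 in N2B27 (35.0%, 15.4% to 59.2%), at 0 to 55.4 and 0 to 426 normalized counts. The mean of 10.2 ± 20.4 in 2i small set against 61.8 ± 112 in N2B27 small and 54.1 in 2i ungated put Lin28a past 2-fold in both, at log2 ratios of 2.49 for N2B27 over 2i and -2.30 for small over ungated. The signs held under all 14 alternatives of each, and with spike-in scaling both were within 2-fold, at 0.28 and -0.64. That scale put the medians of all genes at -1.55 and 0.77. No 2i small cell over 10% spike-ins held a read of Lin28a, and without those 4 cells the ratios were 1.95 and -1.76. The antisense transcript Gm13061 shares 5.86% of the exon bases of Lin28a.

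Trim28, the corepressor of retroelements, had much the same level in both media in ungated cells. It ran from 44.7 to 1097 in 2i (median 465) and from 103 to 1081 in N2B27 (median 517), with means of 522 ± 295 and 542 ± 296, a log2 ratio of 0.06. It was between -0.51 and 0.48 under 11 alternatives. In small cells the mean was 433 ± 298 in 2i and 716 ± 612 in N2B27, a log2 ratio of 0.73. The ratio turned to -1.16 with spike-in scaling, a scale that put the median of all genes at -1.55. Without the 4 cells of 2i small over 10% spike-ins the mean of 2i small was 577. As with Utf1, the cells of N2B27 small spanned a wide range, from 6.49 to 2278, and 2 of them held under 10 counts, at 5.06% and 5.52% of counts on spike-ins. The other 18 cells of N2B27 small had 0.799% to 6.03%. By phase the means there were 305 in G1, 816 in S and 1175 in G2/M, with SDs of 472, 487 and 968.

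Set against all genes, the 7 genes did not stand apart in the ungated comparison. None of the 7 was past 2-fold for N2B27 over 2i, where 17.5% of the 8757 genes whose mean reached 20 normalized counts were (1532 genes), and 2.11% of the 1045 genes with a mean of at least 500, among which are Sall4, Utf1, Zfp42 and Trim28. The median log2 ratio of the 7 was 0.06, with all genes at -0.03, and the median size of a ratio was 0.21 for the 7 and 0.41 for all genes. At such a share of all genes, a count of 0 of 7 does not set the members apart. In small cells 2 of 7 were past 2-fold for N2B27 over 2i (Lin28a and Sall4), where 41.7% of genes were, and 26.4% of those at 500 or more, and the median was 0.65 beside 0.11. That median takes in the 4 cells of 2i small over 10% spike-ins. Without them the 2i small means of Pou5f1, Utf1, Zfp42 and Trim28 were 275, 1035, 2887 and 577. In N2B27 small they were 348, 1403, 2930 and 716. For small over ungated, 3 of 7 were past 2-fold in 2i (Sox2, Sall4 and Lin28a), beside 44.2% of all genes and 37.8% of high ones, and 1 of 7 in N2B27 (Sox2), beside 29.1% and 6.12%. The medians were -0.45 and 0.33 for the 7, and -0.40 and -0.12 for all genes. The comparisons between gates and media share groups, and both that use 2i small carry its cell with 40.9% spike-ins.

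**Figure D3:**
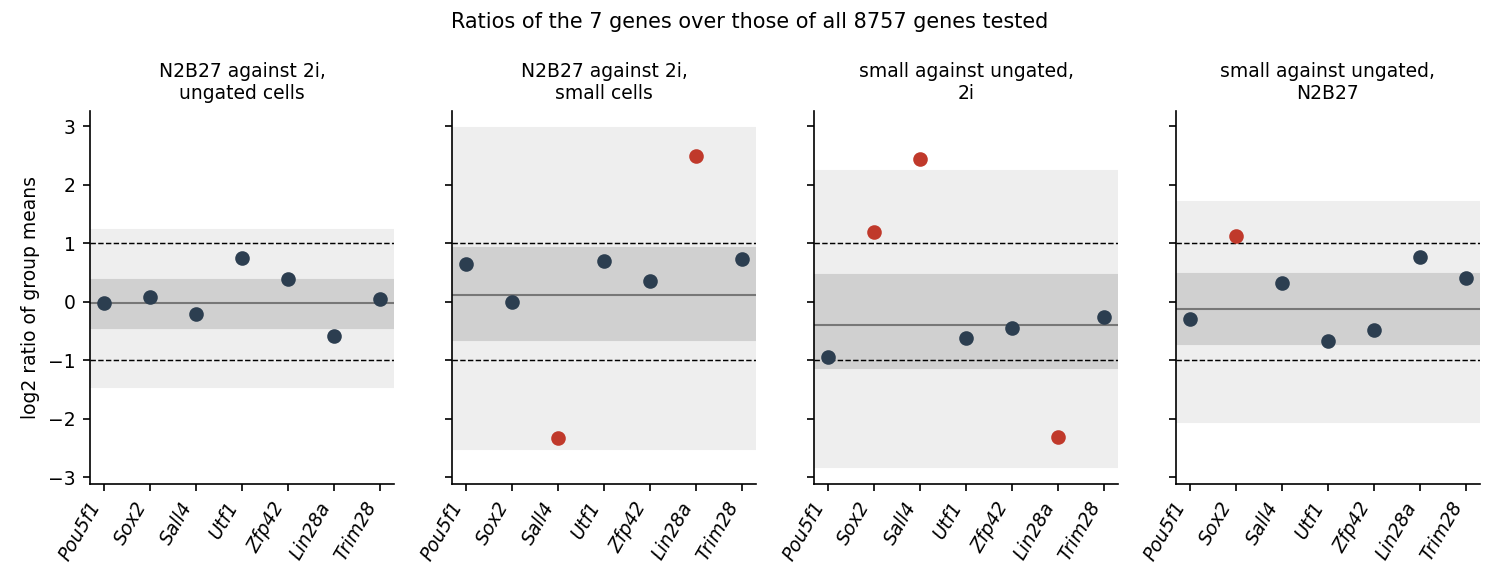
Log2 ratio of the group means for the 7 genes in the 4 comparisons, with the ratios of all 8757 tested genes behind them (light grey, 5th to 95th percentile; dark grey, quartiles; grey line, median) and dashed lines at 2-fold. In ungated cells the 7 lie between -0.58 and 0.75, and the red points past 2-fold in the other comparisons are Lin28a, Sall4 and Sox2, of which Sall4 is at 0.11 and 0.0065 without 1 cell of 2i small.

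The rest of the network was read from lists written with earlier results of these data known. For N2B27 over 2i in ungated cells, 9.89% of all tested genes were past 2-fold lower and 7.61% higher, shares to set beside each list. Of 12 measured genes of the naive network, 5 were past 2-fold lower and 0 higher there, with a median of -0.54. Dppa3, an egg and early embryo factor, stood lowest at -2.58 (29.4 against 181 normalized counts, with at least 10 counts in 5 cells of each group) and Klf5, a Krüppel-like factor, highest at 0.74. Tcl1, a cofactor of the Akt kinase, was at -1.69, Tbx3 at -1.38 and Klf4 at -2.43, while Nanog was at -0.09 and Esrrb at -0.0021. Klf4 was low, with means of 3.37 in N2B27 and 22.5 in 2i, and 2 of 21 and 8 of 22 cells held at least 10 counts. Prdm14, at -1.03, reached 10 counts in 1 of 21 and 7 of 22 cells. From the same cells the 7 core genes had a median of 0.06. In small cells 1 naive gene was past 2-fold higher and 3 were lower, and 4 were lower without the 4 cells of 2i small over 10% spike-ins, where the median was -0.33. With all kept small cells, 23.3% of all tested genes were past 2-fold higher and 18.4% lower for N2B27 over 2i.
The 5 measured genes of the formative list had a median of 0.65 in ungated cells, led by Tcf15, a bHLH factor of early priming, at 1.91, with 1 past 2-fold higher and 0 lower. In small cells their median was -0.41, with Tcf15 at 3.30 and Lef1, a Wnt effector, at -2.51. Without the 4 cells these values were -0.38, 2.77 and -3.08. Past 2-fold there were 2 higher and 1 lower, and 2 higher and 2 lower without the 4 cells. At least 10 counts of Tcf15 were held by 7 of 20 small cells in N2B27 and 3 of 12 in 2i. For Lef1 they were held by 2 of 20 and 6 of 12. Housekeeping genes, 9 measured, had a median of -0.07 in ungated cells with 0 past 2-fold. In small cells their median was -0.36 with 2 lower, Actb at -2.33 and Pgk1 at -2.63, which were at -0.41 and -0.61 without the 4 cells, when the median was -0.49 with 0 lower and 1 higher.
Of 13 measured relatives and partners of the members, the median in ungated cells was 0.05, with 2 past 2-fold higher and 1 lower. Atf7ip, a partner of the H3K9 methyltransferase Setdb1 with which Trim28 works, was highest at 1.46 and Sall1, a relative of Sall4, lowest at -1.77. Setdb1 itself was at 0.50, and the heterochromatin proteins Cbx1, Cbx3 and Cbx5 were at -0.29, -0.96 and 0.31. Sox15, a relative of Sox2, was at 1.03. For N2B27 over 2i in small cells their median was 0.45, with 5 higher and 3 lower, and 0.64 with 4 higher and 1 lower without the 4 cells.
For small over ungated cells, 15.4% of all tested genes were past 2-fold higher and 28.8% lower in 2i, and 11.9% and 17.2% in N2B27. The naive list had a median of -0.38 in 2i, with 2 genes past 2-fold higher and 3 lower. In N2B27 its median was -0.47, with 4 higher and 1 lower. The formative list had medians of -1.15 and -1.19, with 0 higher and 3 of 5 lower in each medium. Relatives and partners had medians of -0.56 in 2i, with 2 higher and 4 lower, and 0.25 in N2B27, with 4 higher and 3 lower. Housekeeping genes had medians of -0.35 in 2i, with 3 of 9 higher and 3 lower, and -0.46 in N2B27, with 0 higher and 2 lower. Without the 4 cells the medians in 2i were 0.011 for the naive list, -0.56 for the formative list, with 1 of 5 lower, -0.42 for relatives and partners and -0.12 for housekeeping genes, with 0 past 2-fold.

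Pou5f1 varied less from cell to cell than most genes of its level. Its SD over mean was 0.294 in 2i ungated, and 5.57% of the 2551 genes with a mean of 150 to 600 had a lower one, where the median gene was at 0.634. Spike-ins of that range were at 0.386, but this rests on 2 spike-ins scaled by their own size factors. It therefore does not place Pou5f1 against technical spread. For Pou5f1 in N2B27 ungated the SD over mean was 0.473, with 8.86% of 2572 genes lower and a median of 0.865. It was 0.696 in N2B27 small (8.10% of genes lower) and 0.901 in 2i small (15.0%). Zfp42 was near the middle of its range in 3 of the groups, at 0.352 in 2i ungated (45.6% of genes lower), 0.508 in N2B27 ungated (57.6%) and 0.657 in N2B27 small (44.8%), and low at 0.615 in 2i small (8.44%). Utf1 was at 0.458 in 2i ungated (72.3%) and 0.423 in N2B27 ungated (40.1%). Trim28 went from 0.566 (37.1%) to 0.546 (12.8%) and Sall4 from 0.558 (35.8%) to 1.10 (77.5%). Sox2 and Lin28a had an SD above their mean in every group, as did the median gene of a mean of 30 to 150. For Pou5f1 in 2i ungated the SD over mean was 0.293 when counts were scaled to CPM (5.56% of genes of its level lower) and 0.344 with scran (8.73%). Without the 4 cells over 10% spike-ins, the SD over mean in 2i small was 0.642 for Pou5f1 (29.5% of genes lower), 0.257 for Zfp42 (10.5%), 0.432 for Trim28 (9.50%), 0.546 for Sall4 (18.7%), 0.761 for Utf1 (86.0%) and 0.919 for Sox2 (17.3%).

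**Figure D4:**
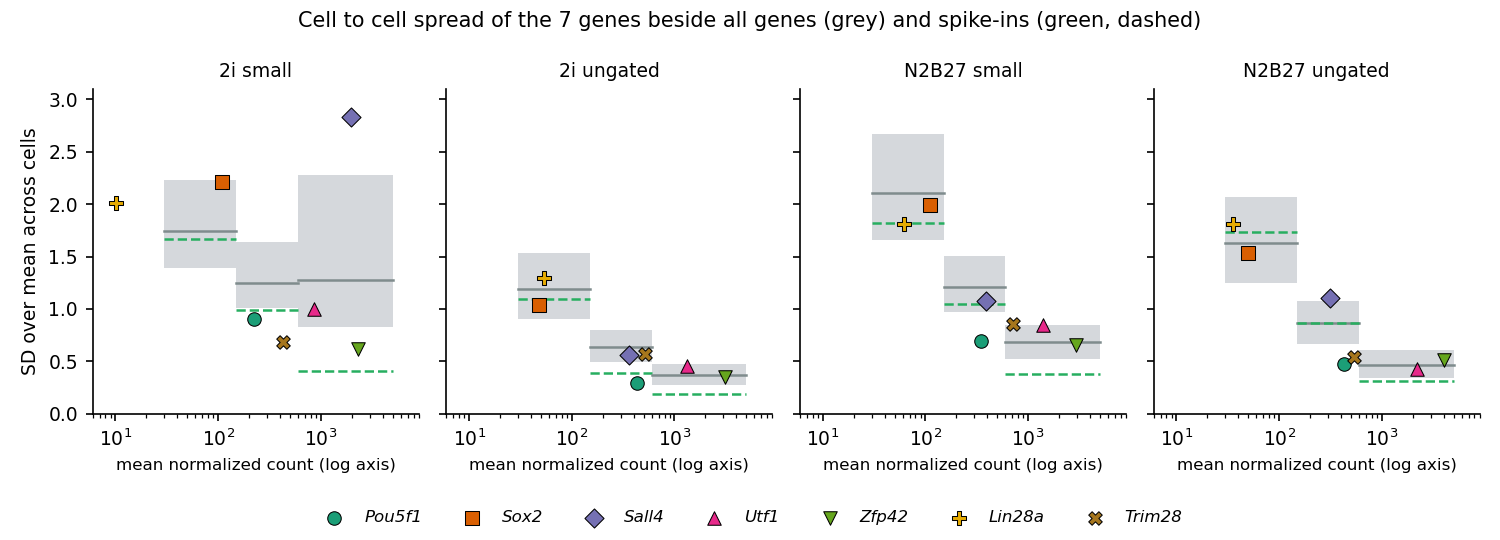
SD over mean across the kept cells of each group for the 7 genes, against their mean normalized count on a log axis, beside all genes of 3 ranges of the mean (grey box, quartiles; grey line, median) and the median of spike-ins of the same range (green, dashed). Spike-ins are scaled by their own size factors, with 2 to 13 of them per range and group. Pou5f1 lies below the lower quartile in all 4 groups with all kept cells (in 2i small, 29.5% of genes are lower without the 4 cells over 10% spike-ins), and Sall4 lies at 2.83 in 2i small because of 1 cell.

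Detection of the 7 genes together separated cells within groups. In 2i small 4 of 12 cells had 3 or more of the 7 under 10 counts, and those 4 had 11.1% to 40.9% of counts on spike-ins and 4612 to 5775 genes detected, against 0.0673% to 5.02% and 7283 to 15712 in the other 8. In N2B27 small 2 of 20 cells did, at 5.06% and 5.52% spike-ins and with 5603 and 6335 genes. The other 18 cells of that group had 0.799% to 6.03% spike-ins and 5866 to 9270 genes, so these ranges overlap. In N2B27 ungated 2 of 21 did, with 1.09% and 1.38% spike-ins and 7271 and 7686 genes, close to the other cells of the group, and in 2i ungated none of 22 did. The part of the spike-in share in the missing genes was not tested.

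Without the 4 cells over 10% spike-ins, the 8 remaining cells of 2i small held at least 10 counts of Pou5f1 in 7, of Sox2 in 7, of Sall4, Utf1, Zfp42 and Trim28 in 8 and of Lin28a in 3. Their mean was 275 ± 176 for Pou5f1, 485 ± 265 for Sall4, 2887 ± 742 for Zfp42, 1035 ± 788 for Utf1 and 577 ± 249 for Trim28, and the ratio of 1 member (Lin28a) stayed past 2-fold in either comparison with 2i small.

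Over cells of 1 group, the 7 genes moved together weakly. Spearman's rho taken within each group and averaged with weights of the number of cells was above 0 for 20 of the 21 pairs, with a median of 0.20, a lowest value of -0.0051 (Sox2 and Utf1) and a highest of 0.38 (Pou5f1 and Utf1). Sall4 with Zfp42 and Sox2 with Zfp42 were each at 0.36. Pou5f1 and Sox2, which bind together, were at 0.10. Over 8750 other genes, the rho of a member had a median of 0.013 to 0.074 and a 99th percentile of 0.29 to 0.39. Sall4 with Zfp42 and Sox2 with Zfp42 lay above that percentile of both their genes (Sall4 0.293, Sox2 0.299, Zfp42 0.328), and no other pair did. By group, Sox2 with Zfp42 was at 0.64 in 2i small, 0.60 in 2i ungated, 0.29 in N2B27 small and 0.011 in N2B27 ungated. In the same order, Sall4 with Zfp42 was at 0.17, 0.45, 0.37 and 0.37. Cells of a group share a plate, a pool and differences in depth, and counts are sparse. The values are a description, and what lies behind them was not tested.
The genes most like each member over the 75 cells were taken as the 3 of highest rho among 8750 other genes, so their rho of 0.43 to 0.56 is high by choice. For Pou5f1 they were Eno1b and Eno1, near-identical copies of an enolase gene between which reads cannot be divided with certainty, and Dnmt3l, a cofactor of de novo DNA methylation (0.48). For Sall4 they were Mob4, Rif1 and Gstz1, for Utf1 Psmd3, a proteasome subunit at 0.56, Gm49342 and Thrap3, and for Trim28 Igf2bp1, Gm15470 and Ccnd3. For Zfp42 they were Oser1 at 0.56, Hmgn2-ps1 and Gm12226, for Sox2 Ncbp3, Cry2 and Dock6, and for Lin28a Zfp689, Rab8a and Dennd6b.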

How the data were processed

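Single-cell RNA sequencing of 4 samples of mouse ES cells was read from a table of counts per medium. The authors trimmed reads with Trim Galore 0.4.4, aligned them to GRCm38 (mm10) with GSNAP, counted them on Ensembl genes with HTSeq, which drops reads on more than 1 gene, and deposited the raw counts without normalization or pooling. Columns were matched to samples through the deposited list of sequencing runs, and spike-in and unassigned rows stayed out of totals.

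A filter set for each plate at 3 median absolute deviations of counts, genes and mitochondrial share (scater 1.30.1) left out 21 of 96 cells. Its lower limits were 307960 counts and 4435 genes in 2i, and 1250610 counts and 5316 genes in N2B27. The kept 2i small cell with 40.9% spike-ins and 4612 genes lay under the limit on genes of the N2B27 plate. Doublets were not called, and whether any well held more than 1 cell was not tested. Size factors came from DESeq2 1.42.0 over the 1227 genes with a count in every kept cell, and phases from cyclone in scran 1.30.0. A ratio is log2 of group means of normalized counts, with a pseudocount of 1 on both. Past 2-fold means a log2 size of at least 1. Genes with a mean of at least 20 were compared, and all 7 members were among them. Detection means at least 10 counts, a limit chosen after values were seen, since many cells held 1 to 9. Levels per kb used merged exons of GENCODE M21. Shares of cells have exact Clopper-Pearson intervals on the number of cells. These take the cells of 1 sample as independent draws and do not cover differences between samples. No p-value was computed, because each group is 1 sample. The ratio was tested on simulated Poisson counts with known changes and no further spread between cells. Errors were judged only for genes of higher mean than Sox2 and Lin28a. That test covers neither outlier cells nor genes as low as these. Other steps ran in R 4.3.3 and Python 3.11.15 (matplotlib 3.10.9, pandas 2.3.3, scipy 1.17.1, numpy 2.4.6). Promoters were taken from RefSeq for 6 of 7 members. Alternatives covered cells kept, size factors (CPM, scran, poscounts, ERCC), the summary over cells, the pseudocount, the filter, thinning and cells in S, and leaving out 2i small cells over 10% spike-ins, lists and spread without cells, spread beside genes of like level with CPM or scran and 5 other cyclone seeds were added after seeing the data. Named genes were the members, the 3 genes most like each of them, and the genes of the lists. Members and lists were chosen with earlier results of these data known.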

Additional observations from a re-analysis of the deposited data

Results flagged for a closer look

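Lin28a had ratios of opposite sign in the compared groups, with a log2 size of at least 0.5 on both sides. For N2B27 over 2i it stood at -0.58 in ungated cells and at 2.49 in small cells, and for small over ungated at -2.30 in 2i and at 0.77 in N2B27. Both pairs rest on the same 4 means (54.1, 35.8, 10.2 and 61.8 normalized counts in 2i ungated, N2B27 ungated, 2i small and N2B27 small), so they are the same pattern seen from either side. The difference was not tested, since each group is 1 sample, and the lowest of the 4 means comes from the 3 of 12 cells with a read. Without the 4 cells of 2i small over 10% spike-ins, 2 of the ratios were 1.95 and -1.76.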

How the results depend on the processing

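Of the summary values and counts, 83 kept within their limits under an alternative and 33 moved. Of the values of single members 470 kept and 12 moved, while 8 values of ratios past 2-fold changed sign. For a member's ratio the limit was the SD over cells of its log2 values, which is wide. Sox2 for N2B27 over 2i in ungated cells went from 0.08 to -2.72 with medians and still counted as kept. The number kept is therefore no measure of how steady the ratios were. Over all ratios of the members, past 2-fold or not, 48 of 350 values under an alternative had the other sign. The cause was not tested unless named. No paired analysis was possible because each group is 1 sample. For N2B27 over 2i in ungated cells, the median of the 7 moved to 0.41 with poscounts size factors and to -0.51 among cells in S, and the count past 2-fold, 0, became 1 with poscounts, 2 with medians of log2 values, 1 with their means and 3 among cells in S. In small cells the median moved to -1.16 with ERCC scaling, which put all genes at -1.55, to 1.12 with means of log2 values and to 0.73 without the highest cells, and the count, 2, became 1 with CPM, with pooled counts, without the highest cells, without the cell with the highest spike-in share and without cells over 10% spike-ins, 5 with ERCC scaling and 4 with means of log2 values. For small over ungated in 2i, the median, -0.45, moved to -1.32 with means of log2 values and changed sign with ERCC scaling (0.85, all genes at 0.77), poscounts (0.18) and no filter on cells (0.17), and the count, 3, became 1 with pooled counts, with medians of log2 values and without cells over 10% spike-ins, and 0 among cells in S. In N2B27 the median, 0.33, moved to 0.89 with poscounts and 1.00 among cells in S. It changed sign with ERCC scaling (-0.43, all genes at -0.82) and means of log2 values (-0.46, all genes at -0.76). The count in N2B27, 1, became 2 with poscounts, ERCC scaling or means of log2 values. It became 0 without the highest cells or with a pseudocount of 10, and 3 among cells in S. The share of genes past 2-fold was 2.11%, 26.4% and 6.12% at a mean of 500 or more in the 2 media comparisons and between gates in N2B27, and 74.4% with ERCC scaling for small cells of both media. Sall4 turned to 0.11 without the cell with the highest spike-in share and to 0.032 in S for N2B27 over 2i in small cells, and to -0.30 and -0.085 with medians and means of log2 values between gates in 2i. Sox2 turned to -0.40 with medians, -0.047 without the highest cells and -0.87 in S between gates in 2i, and to -0.072 with ERCC scaling in N2B27. Ratios among cells in S rest on 4 to 11 cells per group.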
